A study of Mus musculus with 30 samples.

Results

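Short RNAs that matched nuclear-encoded respiratory chain mRNAs were counted in the prefrontal cortex of 5xFAD mice and their wild-type littermates. The members were the protein-coding genes outside the mitochondrial chromosome whose symbol begins with Nduf, Uqcr, Cox4, Cox5, Cox6, Cox7, Cox8 or Atp5, or is Cycs, Cyc1, Sdha, Sdhb, Sdhc or Sdhd, which gave 95 genes of the 21950 protein-coding genes in the annotation. The annotation lists Atp5o under 2 identifiers, which were counted as 1 gene, so the 95 genes stand for 96 identifiers. They comprised 36 subunits of complex I, 8 complex I assembly factors, 4 subunits of complex II, 9 of complex III, 20 of complex IV, 17 of complex V and cytochrome c. A read was counted where its whole sequence of 20 to 45 nt matched a transcript of a member exactly, on the sense strand, and a transcript of no other gene.

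The mice were 6 months old and of C57BL/6J background. AD mice were hemizygous 5xFAD animals, which carry human transgenes under the neuron-directed Thy1 promoter and serve as a model of Alzheimer's disease. WT mice were littermates without the transgenes, and both sexes were used. RNA of 15 to 50 nt was cut from a gel and sequenced by either of 2 protocols. PANDORA-seq treats the RNA with the demethylase AlkB and with T4 polynucleotide kinase before adapter ligation, which removes some base methylations and repairs RNA ends, and was done on 8 WT and 8 AD samples. Traditional-seq omits both enzymes and was done on 7 WT and 7 AD samples. RNA came from whole tissue, so fewer cells of a type and less RNA per cell cannot be told apart.

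The respiratory chain sits in the inner mitochondrial membrane. Complex I takes electrons from NADH and complex II from succinate, complex III passes them to cytochrome c, complex IV hands them to oxygen, and complex V uses the resulting proton gradient to make ATP. A few subunits are encoded in mitochondrial DNA, and all the others, the ones described here, are transcribed in the nucleus and translated in the cytosol. Neurons depend heavily on this pathway, and several complex IV subunits exist as isoforms for brain, muscle or testis.

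Sequences that carried many PANDORA-seq reads are shown first. For each complex, the most abundant coding fragment of the leading gene is given, where the leading gene is the one with the highest mean level in PANDORA-seq. Bases in capitals lie in the exon that follows a splice junction, and coordinates are GRCm38.
Ndufs1: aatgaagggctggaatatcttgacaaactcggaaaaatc
Sdha: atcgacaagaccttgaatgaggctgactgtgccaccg
Uqcrc2: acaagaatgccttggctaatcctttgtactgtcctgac
Cox4i1: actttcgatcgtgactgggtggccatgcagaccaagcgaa
Atp5b: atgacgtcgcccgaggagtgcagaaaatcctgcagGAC

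The Ndufs1 fragment lay in exon 5 (chr1:63166303-63166341, minus strand) and the Sdha fragment in exon 15 (chr13:74323113-74323149, minus strand). The Uqcrc2 fragment lay in exon 7 (chr7:120645181-120645218, plus strand) and the Cox4i1 fragment in exon 5 (chr8:120673991-120674030, plus strand). The Atp5b fragment covered the last 35 bases of exon 8 (chr10:128088499-128088533, plus strand) and the first 3 of exon 9 (chr10:128088957-128088959). It had 14337 reads over the 16 PANDORA-seq libraries, 8.86% of all Atp5b reads, and was found in 16 of 16. The Ndufs1 fragment had 363 reads, 2.23% of that gene's reads, so a single sequence carried little of Ndufs1.

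Some leading sequences held a larger share of their gene. The 5 most abundant coding fragments of the members after that of Atp5b, chosen after their values were seen, were the following, with the same use of capitals.
Atp5g3: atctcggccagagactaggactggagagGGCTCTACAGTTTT
Ndufb10: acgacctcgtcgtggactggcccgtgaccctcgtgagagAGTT
Cox7a2: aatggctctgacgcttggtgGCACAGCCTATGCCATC
Uqcrc1: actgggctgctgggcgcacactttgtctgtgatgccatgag
Atp5k: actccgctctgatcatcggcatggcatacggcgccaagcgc

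The Ndufb10 fragment (7608 reads) made up 52.3% of the reads of its gene, the Atp5k fragment (3922 reads) 42.8%, the Atp5g3 fragment (11586 reads) 24.5%, the Cox7a2 fragment (4720 reads) 23.4% and the Uqcrc1 fragment (4068 reads) 17.1%. All 5 were found in 16 of 16 PANDORA-seq libraries, and each begins with A. The Atp5g3 fragment joins exons 3 and 4 (chr2:73909864-73909891 and chr2:73909364-73909377, minus strand), and the Cox7a2 fragment joins exons 3 and 4 (chr9:79756277-79756296 and chr9:79755589-79755605, minus strand). Both junctions exist in the spliced mRNA and not in the gene as read from DNA. The Ndufb10 fragment reached 4 bases into exon 2 (chr17:24724187-24724225 and chr17:24722790-24722793, minus strand).

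Fragments of Atp5b formed a series with a shared 3′ end and different 5′ ends. The 5 most abundant are shown from the longest to the shortest, chosen after their values were seen, with the 36 bases that all share in capitals.
Atp5b, 45 nt: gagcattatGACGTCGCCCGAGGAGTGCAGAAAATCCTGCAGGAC
Atp5b, 41 nt: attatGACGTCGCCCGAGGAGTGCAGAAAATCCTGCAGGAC
Atp5b, 39 nt: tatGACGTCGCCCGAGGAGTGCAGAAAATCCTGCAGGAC
Atp5b, 38 nt: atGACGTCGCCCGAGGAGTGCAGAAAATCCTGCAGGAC
Atp5b, 36 nt: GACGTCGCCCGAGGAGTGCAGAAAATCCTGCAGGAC

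Fragments with this 3′ end had 17 different 5′ ends, from 29 to 45 nt in length. Together they held 19245 reads, 11.9% of the Atp5b reads in PANDORA-seq. The share was lowest at 3.51%, 12.5% at the median and highest at 18.6% in WT libraries, and 2.15%, 9.75% and 16.48% in AD libraries, so the groups overlapped. Within the series the 38-nt form had 14337 reads, the 36-nt form 2242 and the 45-nt form 1312.

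Traditional-seq gave shorter fragments at some of the same places. Its most abundant coding fragments of the members, also chosen after their values were seen, came from Cox4i1 exon 5 (chr8:120673990-120674019) and Atp5o exon 4 (chr16:91926937-91926963, minus strand).
Cox4i1, traditional-seq: tactttcgatcgtgactgggtggccatgca
Cox4i1, traditional-seq, 29 nt: actttcgatcgtgactgggtggccatgca
Atp5o, traditional-seq: aagtgtctctggctgttctgaatccct

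The 29-nt Cox4i1 fragment of traditional-seq began at the same base as the 40-nt fragment that led Cox4i1 in PANDORA-seq (position 120673991 of chromosome 8). Over the genes with at least 100 reads in traditional-seq or 1000 in PANDORA-seq, the leading 3′ end held a median of 17.1% of the reads of a gene in traditional-seq (33 genes) and 11.8% in PANDORA-seq (82 genes), and the leading 5′ end 12.2% and 12.1%. Gene sets, read floors and reads per gene differed, so these medians do not compare the protocols. The 30-nt Cox4i1 form of traditional-seq had 31 reads, the 29-nt form 24 and the Atp5o fragment 25.

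Library totals ran from 54926347 to 105876141 reads in PANDORA-seq and from 9370669 to 17053412 in traditional-seq. Of these, 18581 to 138025 per library fell on the members in PANDORA-seq and 297 to 1593 in traditional-seq. Single genes were thus measured far less precisely in traditional-seq, whose libraries were also smaller in total. In all, 132522 distinct sequences of the members were found in PANDORA-seq and 5427 in traditional-seq. As a check of the labels, fragments of Thy1, whose mouse gene supplies the promoter of the transgenes, were at 1.45 to 16.6 RPM (reads per 1000000 deposited reads of the library) in traditional-seq WT libraries and at 6.18 to 18.9 in AD libraries. Thy1 was the only gene called in that comparison (log2 fold change 1.46, SE 0.27, edgeR quasi-likelihood adjusted p = 0.034), and by library total in place of TMM 0 genes were called there. In PANDORA-seq its log2 fold change was 0.83 (SE 0.49, adjusted p = 0.52).

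In PANDORA-seq the members summed to 325.4 RPM in the lowest, 842 at the median and 1738 in the highest of 8 WT libraries. In the 8 AD libraries the values were 327.7, 524 and 1226. The groups overlapped over most of their range, although 7 of 8 AD libraries lay below the WT median and 2 WT libraries lay above every AD library. The means were 929.8 ± 468.7 (SD, n = 8) in WT and 579.9 ± 293.8 (SD, n = 8) in AD, a ratio of AD over WT of 0.62. In traditional-seq the lowest, median and highest values were 36.3, 77.8 and 134 RPM in 7 WT libraries and 31.7, 80.9 and 96.2 in 7 AD libraries, a ratio of means of 0.91. All 16 PANDORA-seq libraries lay above all 14 traditional-seq libraries, and the ratio of the protocols' means was 10.2 in RPM. Per 1000 reads of nuclear mRNA that ratio was 1.51.

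**Figure D1:**
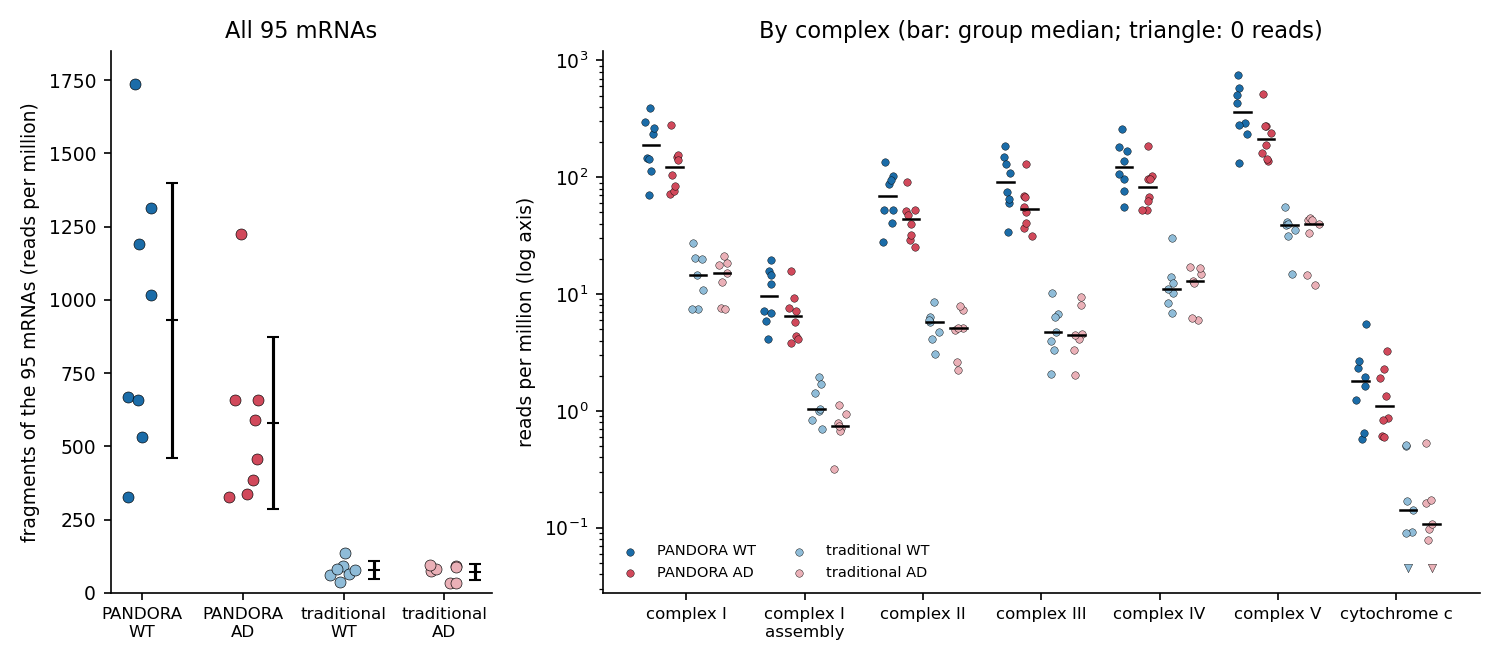
RPM of the fragments of all 95 mRNAs (left, linear axis, points are libraries, bars are mean and SD) and of each complex (right, log axis, black bars are group medians), for 8 PANDORA-seq WT, 8 PANDORA-seq AD, 7 traditional-seq WT and 7 traditional-seq AD libraries. PANDORA-seq libraries sit between 325.4 and 1738 and traditional-seq libraries between 31.7 and 134, while WT and AD overlap in both.

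The other nuclear mRNAs also had a lower mean in AD. In PANDORA-seq their fragments, without Tmem38b and Lars2, were at 94364 ± 44085 RPM (SD, n = 8) in WT and 65964 ± 30736 (SD, n = 8) in AD. The ratio of means was 0.70, the ranges overlapped, and the difference was not tested. Per 1000 reads of nuclear mRNA, the members had 8.23 reads in the lowest, 9.69 at the median and 10.4 in the highest WT library, against 6.98, 9.06 and 9.32 in AD. On this scale 6 of 8 WT libraries lay above every AD library and 8 of 8 AD libraries below the WT median, and the ratio of means was 0.90. In traditional-seq the means were 6.36 ± 1.44 (SD, n = 7) in WT and 5.72 ± 0.59 (SD, n = 7) in AD, with overlapping ranges. Antisense reads on the members averaged 1.57 RPM in PANDORA-seq and 0.49 RPM in traditional-seq.

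The makeup by complex was steady. Complex V, the ATP synthase, took 40.5% to 44.2% of the members' reads in every PANDORA-seq library, complex I 21.1% to 23.9%, complex IV 12.7% to 17%, complex III 9.36% to 11.3% and complex II 7.42% to 8.93%. Complex I assembly factors took 1.04% to 1.57% and cytochrome c 0.11% to 0.39%. In traditional-seq complex V held 46.8% ± 6.25 (SD, n = 14) and complex III 7.10% ± 2.05 (SD, n = 14), against 42.4% ± 1.06 and 10.6% ± 0.55 (SD, n = 16) in PANDORA-seq.

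The 10 leading genes held 49.0% of the members' PANDORA-seq reads. Atp5b (chr10:128083273-128090391), the catalytic beta subunit of the ATP synthase, was at 51.1 RPM in the lowest, 133 at the median and 281 in the highest WT library and at 58.9, 81.6 and 195 in AD libraries. Atp5a1, the alpha subunit, was at 32.7, 94.0 and 194 RPM in WT and at 29.4, 47.9 and 141 in AD. Atp5g3 (chr2:73908447-73911326), which encodes subunit c of the membrane ring, was at 11.1, 43.5 and 86.9 RPM in WT and 10.5, 22.8 and 52.4 in AD. For all 3 the groups overlapped. Atp5b and Atp5a1 together made up 26.7% of the members' level in PANDORA-seq and 27.0% in traditional-seq, but Atp5a1 was the higher of the pair in traditional-seq, with 13.4 RPM against 6.59.

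Levels between genes were compared per 1000 positions of the transcript whose 36-nt window belongs to no other gene, as a mean over the 16 PANDORA-seq libraries. Atp5b led with 66.3 RPM per 1000 unique positions, followed by Atp5g3 with 51.5, Atp5a1 with 32.9 and Cox6a1 with 30.6. Cox5a (24.9), Cox7a2 (24.3), Cox4i1 (24.3) and Cox8a (24.2), all structural subunits of complex IV, came next and differed from each other by far less than the spread between libraries. Among the electron carriers, Cyc1, the heme subunit of complex III, was at 4.0 and Cycs, cytochrome c itself, at 0.83.

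In complex I, Ndufs1, the large iron-sulfur subunit, was at 4.05 RPM in the lowest, 13.4 at the median and 29.5 in the highest WT library in PANDORA-seq and at 3.88, 8.84 and 22.5 in AD. Ndufb10, a small membrane-arm subunit, was at 2.98, 14.6 and 21.6 RPM in WT and 2.24, 8.14 and 14.9 in AD. Ndufa10 was at 3.40, 11.6 and 30.7 RPM in WT and 3.13, 7.16 and 17.8 in AD. The ranges of WT and AD overlapped for these genes.

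In complex II, which is encoded wholly in the nucleus, Sdha, the flavoprotein that oxidises succinate, was at 15.6, 41 and 82.9 RPM in WT and 13.4, 26.6 and 56.7 in AD. Sdhb, the iron-sulfur subunit, was at 4.69, 13.5 and 26 RPM in WT and 3.10, 6.73 and 15.8 in AD. Sdhc, a membrane anchor, was at 4.28, 10.8 and 16.3 RPM in WT and 4.99, 6.94 and 11 in AD. AD medians were lower for each, with overlapping ranges.

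In complex III, the core subunits Uqcrc2 and Uqcrc1 were at 23.5 and 19.3 RPM at the WT median and at 13.8 and 11.6 at the AD median. Uqcrh, the hinge protein that contacts cytochrome c1, was at 5.91, 12.6 and 23.7 RPM in WT and 3.33, 6.26 and 16.4 in AD. In complex IV, Cox4i1 was at 8.99, 19.3 and 38.2 RPM in WT and 8.58, 12.6 and 30.1 in AD. Cox7a2 was at 5.45, 22.8 and 34.9 RPM in WT and 4.19, 8.81 and 24.6 in AD, and Cox5a at 4.86, 14.6 and 37.3 in WT and 4.04, 7.96 and 23.2 in AD.

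**Figure D2:**
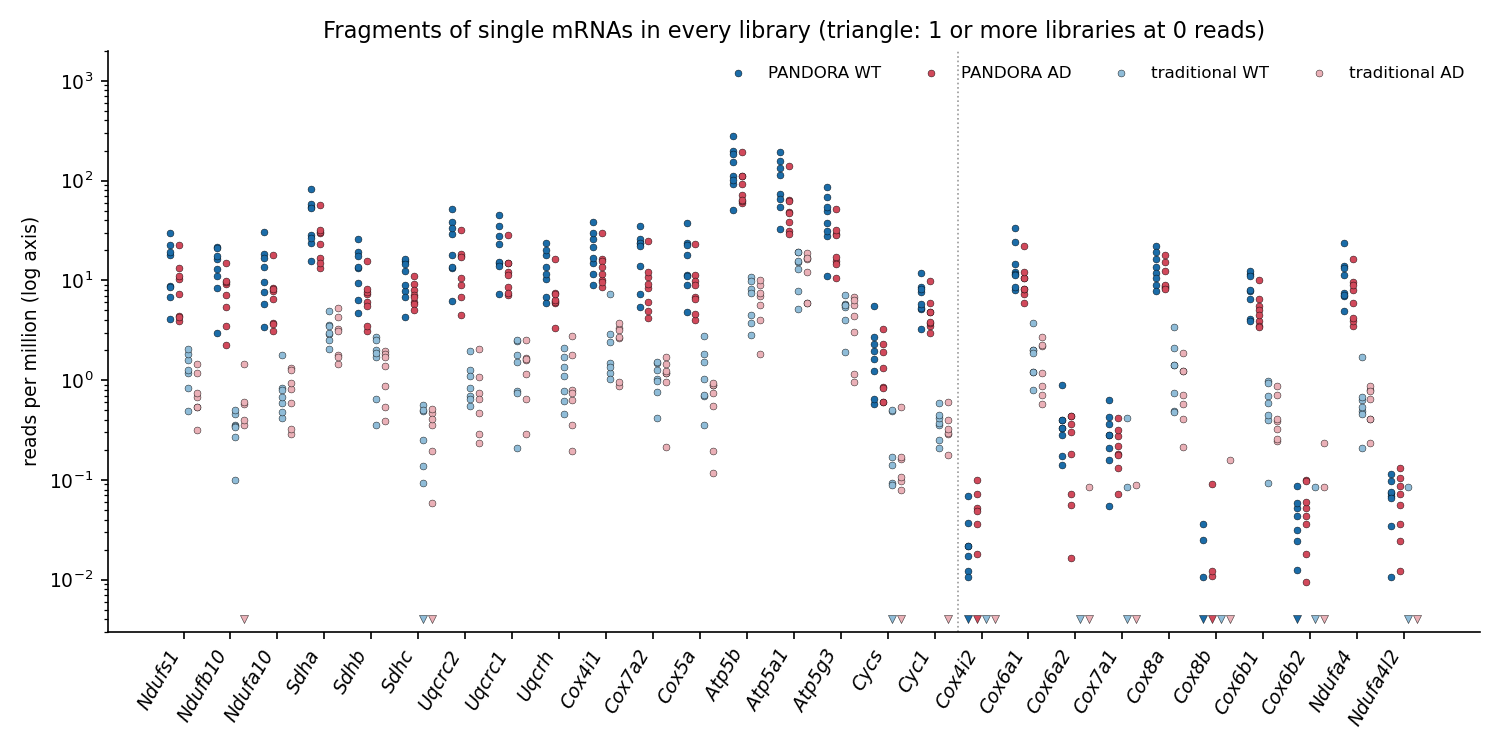
RPM (log axis) of fragments of 27 named mRNAs in each library, coloured by protocol and genotype, with a triangle where 1 or more libraries had no read. The dotted line separates the leading genes of each complex with cytochrome c and Cyc1 from the remaining genes of the isoform pairs, of which Cox4i2, Cox6a2, Cox7a1, Cox8b, Cox6b2 and Ndufa4l2 lie at or below 0.90 RPM in PANDORA-seq.

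Within each isoform pair of complex IV, the ubiquitous form was the abundant one. Cox4i1 had 23596 PANDORA-seq reads and Cox4i2, a form of lung and hypoxic cells, 41. Cox6a1 had 17404 reads and its heart and muscle partner Cox6a2 410. Cox7a2 had 20151 reads against 351 for the muscle form Cox7a1, and Cox8a had 16429 against 13 for Cox8b. Cox6b1 had 8981 reads against 58 for the testis form Cox6b2, and Ndufa4 had 12402 against 86 for Ndufa4l2. Cox8c was the only member with no read in any library, and over the 1318568789 PANDORA-seq reads a count of 0 allows a level of up to 0.00228 RPM, a limit that covers counting error alone.

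In all, 94 of 95 members had a read in PANDORA-seq and 93 in traditional-seq, and 89 had one in every PANDORA-seq library against 36 in every traditional-seq library. Levels of members with processed pseudogenes were underestimated, because reads that also match a pseudogene were not counted. In PANDORA-seq 11.9% of the reads that matched a member alone among genes with a protein product were set aside for this reason. The share was 98.7% for Atp5g2, 93.8% for Ndufb4 and 83.6% for Cox7c, so the low levels of these genes cannot be read as low expression.

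Whether single members differed between AD and WT was tested with edgeR's quasi-likelihood test over all protein-coding genes, with TMM scaling, a call needing an adjusted p under 0.05 and a fold over 2. In PANDORA-seq 88 of 95 members passed the filter on low counts and 0 were called, against a background of 0% of 13472 genes in either direction (0 percent called). DESeq2 also called 0 of 94 members, and 1 gene lower and 14 higher of 17116. At an unadjusted p under 0.05, 16 members were lower in AD and 1 higher, beside 3.33% lower and 6.85% higher of all genes tested. The log2 fold change was below 0 for 75 of 88 members, against 47.6% of all genes, and the median was −0.14, against 0.02 over all genes. Leaving out each library gave medians of −0.19 to −0.08, the latter without AD replicate 1. When libraries were scaled by their total in place of TMM, the median of all genes moved to −0.42 and that of the members to −0.59.

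The members with an unadjusted p under 0.05 spanned complexes I to V. Uqcrh had a log2 fold change of −0.45 (SE 0.14, edgeR adjusted p = 0.44) and Cox7a2 of −0.54 (SE 0.22, edgeR adjusted p = 0.45). Atp5a1 had −0.38 (SE 0.14), Atp5g3 −0.42 (SE 0.17) and Sdhb −0.46 (SE 0.20), with edgeR adjusted p-values of 0.44, 0.45 and 0.46. Chosen after its values were seen, Atp5o, the stalk subunit that links the membrane and catalytic parts of ATP synthase, had the smallest unadjusted p of the members (0.00081) with a log2 fold change of −0.53 and an edgeR adjusted p of 0.44. The member above 0 was Ndufa6 (log2 fold change 0.33, SE 0.15, edgeR adjusted p = 0.47). Atp5b itself had −0.16 (SE 0.12, edgeR adjusted p = 0.62), Cox4i1 −0.08 (SE 0.12) and Cycs −0.04 (SE 0.23).

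By complex, 9 of 9 members of complex III and 4 of 4 of complex II tested had a log2 fold change below 0, beside 47.6% of all genes tested. Their medians were −0.23 and −0.16. The members were measured in the same libraries, so these counts are not independent observations. The median was −0.14 over 36 complex I members, −0.18 over 16 of complex V, −0.10 over 14 of complex IV and −0.07 over 8 assembly factors. Without PANDORA-seq AD replicate 1, whose members' share of nuclear mRNA reads was the lowest, 65 of 88 members lay below 0, and without any other library 68 to 78 did. In traditional-seq 23 members passed the filter and 0 were called, against 0% lower and 0.0288% higher of 3472 genes. There 1 member was lower at an unadjusted p under 0.05 and 0 were higher, beside 1.41% and 1.87% of all genes. DESeq2 also called 0 of 84 members there, beside 0 lower and 1 higher of 11622 genes. With edgeR, 17 of the 23 members had a log2 fold change below 0, against 52.1% of all genes, with a median of −0.18 against −0.01. Leaving out each traditional-seq library gave medians of −0.36 to −0.11. The median was −0.11 without WT replicate 3, and it was −0.33, −0.30, −0.31 and −0.28 without WT replicates 2, 5, 6 and 7 and −0.31 and −0.36 without AD replicates 2 and 7.

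**Figure D3:**
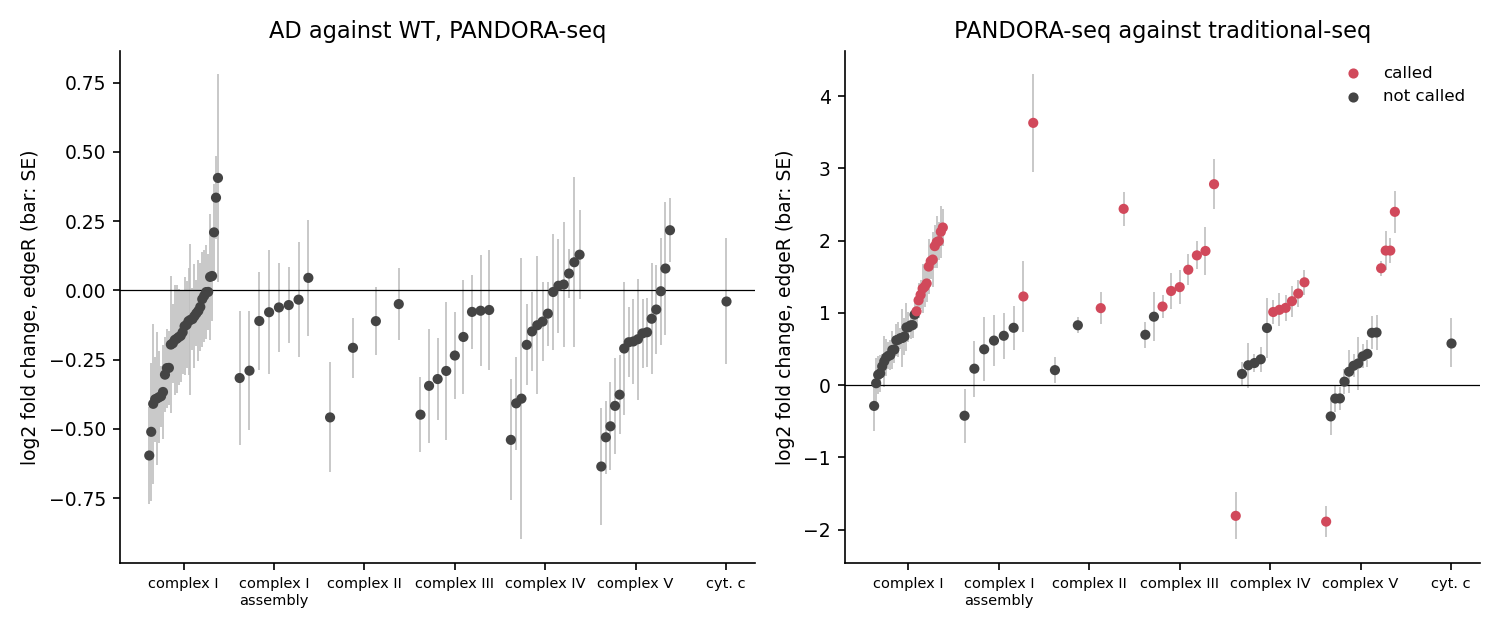
Log2 fold change of each member tested, by complex, for AD against WT in PANDORA-seq (left, 88 members) and PANDORA-seq against traditional-seq (right, 85 members). Bars are the standard error derived from the edgeR statistic, and red points are members called. On the left 75 of 88 points lie below 0 and none is called. On the right 35 are called higher and 2 lower, beside 12.3% and 4.17% of all genes tested.

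Other mRNAs of the pathway were set beside the members. Of the 31 assembly factors of the respiratory chain outside the members, 0 of 31 tested were called in PANDORA-seq, 21 lay below 0 and the median log2 fold change was −0.13. The 77 mitochondrial ribosomal protein mRNAs tested had a median of −0.12, with 62 below 0. The 80 cytosolic ribosomal protein mRNAs tested had a median of 0.09, with 24 below 0. Of the 13 mitochondrially encoded mRNAs, which encode the remaining subunits of complexes I, III, IV and V, 9 were tested, and 9 of 9 lay above 0 with a median of 0.25. The 4 not tested were mt-Co2, mt-Co3, mt-Atp6 and mt-Nd4l, whose mean levels in PANDORA-seq WT were 0, 0.23, 0.079 and 0.031 RPM. Reads that also match another gene, pseudogenes included, were not counted, so these levels cannot be read as low expression. Over all genes tested 47.6% lay below 0, and the genes of a list were measured in the same libraries, so these counts are a description. None of the 4 lists had a gene called.

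Markers of brain cell types were set beside the members in the same libraries, and their summed levels overlapped between WT and AD in each list. In PANDORA-seq 5 of 6 neuronal markers had a log2 fold change below 0 (median −0.20), beside 47.6% of all genes tested. Their summed level was 211 to 1464 RPM in WT and 192 to 1160 in AD. The 8 microglial markers lay above 0 in 8 of 8 (median 0.80), with sums of 7.83 to 26.1 RPM in WT and 9.95 to 19.7 in AD. The 6 oligodendrocyte markers lay above 0 in 6 of 6 (median 0.56, sums of 64.2 to 279 and 76.3 to 243 RPM) and the 6 astrocyte markers in 5 of 6 (median 0.69, sums of 137 to 467 and 120.6 to 376 RPM). No marker of these lists was called or at 0 in all libraries, and their part in the members' values was not tested. The neuronal and glial markers of the labelled tissue were all detected.

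Endothelial, blood and choroid plexus markers summed to at most 20.5, 50.3 and 26.6 RPM in PANDORA-seq, with medians of 0.75, 0.09 and 0.34 on the log2 scale. Markers of striated muscle stayed at or below 2.37 RPM. The liver genes Alb and Apoa1 summed to 44.6 to 407 RPM in PANDORA-seq and to at most 8.68 RPM in traditional-seq, a median log2 difference between protocols of 3.75, and their source was not tested.

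The 2 protocols were compared over all 30 libraries, taken as independent although 14 codes in the library names occur in both protocols. Scaled by TMM, which sets each gene against the other mRNAs, 35 of 85 members tested were higher in PANDORA-seq and 2 lower, against 12.3% higher and 4.17% lower of 12015 genes. Of these 85 members 62 did not pass the filter in traditional-seq libraries alone, and of the 35 called higher 30 did not, so they were tested by way of their PANDORA-seq counts, and the counts and medians here are a description of the members and no support for a difference. The same held for 8543 of the 12015 genes and 1357 of the 1480 called higher. The median log2 fold change was 0.79 for the members and 0.21 for all genes, and 7 of 85 members lay below 0, against 37% of all genes. Scaled by library total, 83 of 85 members were called higher and 0 lower, and 11806 of all genes higher and 16 lower. In RPM, other nuclear mRNAs were 6.31-fold higher in PANDORA-seq. DESeq2 called 28 of 94 members higher and 5 lower, beside 1406 and 1440 of 17159 genes.

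Calls higher in PANDORA-seq numbered 7 of 9 members in complex III, 6 of 12 in complex IV, 2 of 4 in complex II, 14 of 35 in complex I, 4 of 16 in complex V and 2 of 8 assembly factors. The share over all genes tested was 12.3%. Of the 35 members called higher, 30 were tested by way of their PANDORA-seq counts. These numbers are therefore a description and do not rank the complexes. With each gene's leading sequence left out 27 of 85 members were called higher, beside 1283 of 11931 genes, and with DESeq2 size factors 28 of 85, beside 1244 of 12015. Under both of these Cox7a2, Cox8a, Cox6b1 and Uqcrc1 fell below the 2-fold limit, with log2 fold changes of 0.71 to 0.99, and Ndufb10 did so at 0.98 with the leading sequence left out and at 0.92 with reads of 20 to 42 nt. The small complex III subunit Uqcr11 had 7630 reads over the PANDORA-seq libraries and 24 over the traditional-seq libraries, and Sdhc had 12114 and 49. Their fitted log2 fold changes were 2.78 and 2.44, given as a description with no test, since both passed the filter by way of PANDORA-seq alone. The complex I assembly factor Ndufaf8 had 577 reads over the PANDORA-seq libraries and 1 over the traditional-seq libraries, where 1 of 14 held it, so its fitted fold change depends on the count added in fitting and is not given. Atp5b was 1.62 higher on the log2 scale (SE 0.11, edgeR adjusted p = 5.05e-15), whereas Atp5a1 was at −0.18 (SE 0.15, edgeR adjusted p = 0.38) and Atp5g3 at 0.27 (SE 0.16, edgeR adjusted p = 0.18).

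The 2 members lower in PANDORA-seq were Atp5mpl, a small subunit of ATP synthase (log2 fold change −1.89, SE 0.21, edgeR adjusted p = 4.64e-09), and Cox7c, a small complex IV subunit (−1.81, SE 0.33, edgeR adjusted p = 3.65e-05). In RPM, Atp5mpl was at 0.86 to 6.70 in PANDORA-seq and 0.11 to 3.93 in traditional-seq, with overlapping ranges. Cox7c was at 1.35 to 4.45 RPM in PANDORA-seq and 0 to 4.19 in traditional-seq. Both directions held relative to other mRNAs and not per read of the library, where Atp5mpl was at 0.62 and Cox7c at 0.66. With pseudogene matches counted, Cox7c was at −0.15 and was no longer called. In RPM, 67 of 95 members (70.5%) had every PANDORA-seq library above every traditional-seq library, as had 28.4% of all genes with a read.

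Of the wider pathway, beside 12.3% higher and 4.17% lower of all genes, 6 of 31 assembly factors were called higher and 2 lower between the protocols (median 0.45), and 17 of 76 mitochondrial ribosomal protein mRNAs higher and 3 lower (median 0.50). Of 73 cytosolic ribosomal protein mRNAs 17 were higher and 9 lower (median 0.10). In traditional-seq alone 2 assembly factors, 3 mitochondrial and 10 cytosolic ribosomal protein mRNAs passed the filter, so the others were tested by way of their PANDORA-seq counts and these counts are a description. The mitochondrially encoded mRNAs went the other way relative to other mRNAs, with 9 of 9 tested lower and a median of −2.06. In RPM they averaged 1312 ± 610 (SD, n = 16) in PANDORA-seq and 1038 ± 587 (SD, n = 14) in traditional-seq, a ratio of 1.26 where that of the members was 10.2. These sums leave out reads that also match another gene, pseudogenes included.

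The fragments differed in length between genotypes. Fragments of 43 to 45 nt, the longest deposited, made up 17.2% in the lowest, 19.9% at the median and 25.2% in the highest of 8 WT PANDORA-seq libraries, and 4.57%, 7.01% and 14% of 8 AD libraries. The groups did not overlap. The means were 20.3% ± 2.68 and 7.64% ± 3.22 (two-sided exact permutation test, p = 0.000155, the smallest it can give, adjusted p = 0.00148 over 19 comparisons). Mean length was 36.6 nt ± 0.74 in WT and 35.0 nt ± 0.23 in AD (exact permutation test, adjusted p = 0.00148). The same shift was present outside the members. In all reads of the library the share of 43 to 45 nt was 11.2% to 21.5% in WT and 2.13% to 10.7% in AD, and in other nuclear mRNAs it was 15.9% to 22.6% and 3.60% to 12.8%. With reads of 20 to 42 nt alone, mean length differed by 0.47 nt (adjusted p = 0.59 by the exact permutation test), and the log2 ratio of AD over WT in the members' RPM was −0.47 in place of −0.68. Its part in the lower AD level was not tested beyond this.

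**Figure D4:**
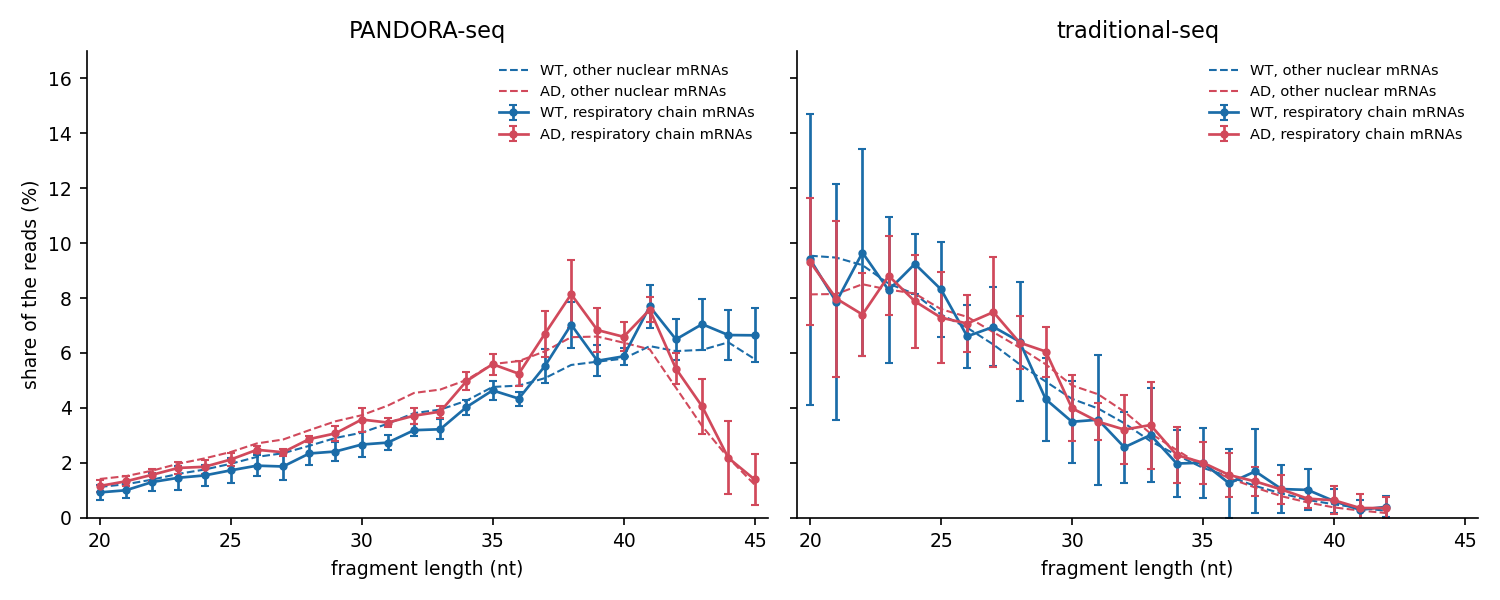
Share of reads (%) at each fragment length (nt) in PANDORA-seq (left) and traditional-seq (right), as mean and SD over libraries for the members (solid lines) and as mean for other nuclear mRNAs (dashed lines), in WT (blue) and AD (red). The AD lines drop above 42 nt in PANDORA-seq, to a share of 43 to 45 nt of 7.64% against 20.3% in WT, and traditional-seq has no read above 42 nt.

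Traditional-seq fragments of the members were shorter, with a mean of 26.4 nt ± 1.40 (SD, n = 14) against 35.8 nt ± 0.99 (SD, n = 16) in PANDORA-seq (permutation test, p = 1e-05, the smallest 100000 shuffles can give, adjusted p = 2.25e-05 over 9 comparisons). No traditional-seq library held a read above 42 nt. Reads with an undetermined base numbered 6827 to 14773 per traditional-seq library and 0 in PANDORA-seq. Protocol and handling of the reads therefore cannot be told apart. In traditional-seq the genotypes did not differ detectably in length (26.3 nt ± 1.91 and 26.5 nt ± 0.77, exact permutation test adjusted p = 0.83). Within PANDORA-seq libraries the members' fragments were 0.66 nt longer than those of other nuclear mRNAs, in 16 of 16 libraries (two-sided exact permutation test by sign flips, p = 3.05e-05, the smallest it can give, adjusted p = 7.85e-05 over 18 comparisons). Counted once per distinct sequence, the difference was 0.06 nt (permutation test adjusted p = 0.13). Each library holds the same genes, so both p-values measure spread between libraries, and the contrast of the gene sets is a description.

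Fragments lay mostly in coding sequence. In PANDORA-seq 72.6% ± 4.52 (SD, n = 16) of the members' reads lay in coding sequence, 21% ± 3.17 in 3′ UTRs and 3.47% ± 1.13 in 5′ UTRs. Even coverage of the unique 36-nt windows of the same genes would give 61.2%, 24.6% and 14.1%. In traditional-seq the shares were 55.7% ± 3.62, 32.1% ± 4.64 and 8.35% ± 2.65 (SD, n = 14), where even coverage of 26-nt windows would give 56.9%, 24.4% and 18.7%. Coding share was higher and both UTR shares were lower in PANDORA-seq than in traditional-seq (permutation test, adjusted p = 2.25e-05 for each). Between genotypes the coding share in PANDORA-seq was 73.9% ± 4.15 in WT and 71.2% ± 4.75 in AD (exact permutation test adjusted p = 0.40).

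Fragments that crossed an exon junction, with at least 5 bases on each side, made up 16.4% ± 1.98 (SD, n = 16) of the members' PANDORA-seq reads, where even coverage would give 12.4%, and 13.2% ± 3.97 (SD, n = 14) in traditional-seq, where it would give 7.42%. The protocols differed by 3.14 percentage points (permutation test adjusted p = 0.009), and with reads of 20 to 42 nt by 2.03 points (permutation test adjusted p = 0.090). Even coverage by the longer fragments would itself put PANDORA-seq higher, so these tests do not separate placement from fragment length. On means, traditional-seq lay further above its own even-coverage share. The share was 17.5% ± 1.56 in WT and 15.3% ± 1.74 in AD in PANDORA-seq (exact permutation test adjusted p = 0.10). Weighted by distinct sequences, an alternative to the main weighting by reads, AD was at −1.23 points relative to WT (exact permutation test adjusted p = 0.0070). Fragments were also shorter in AD, and the part of length in this value was not tested. A lower share in AD was not particular to the members. Among reads of other nuclear mRNAs it was 8.54% ± 0.42 in WT and 7.34% ± 0.82 in AD, a difference that was not tested. Other nuclear mRNAs had 7.94% ± 0.88 junction reads and 49.9% ± 3.64 coding reads in PANDORA-seq, lower than the members in 16 of 16 libraries. Even coverage of the members would itself give 12.4% and 61.2%. Coding length and junction number of the transcripts were not adjusted for, and each library holds the same genes. The contrast is therefore a description, and no test of it is given.

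**Figure D5:**
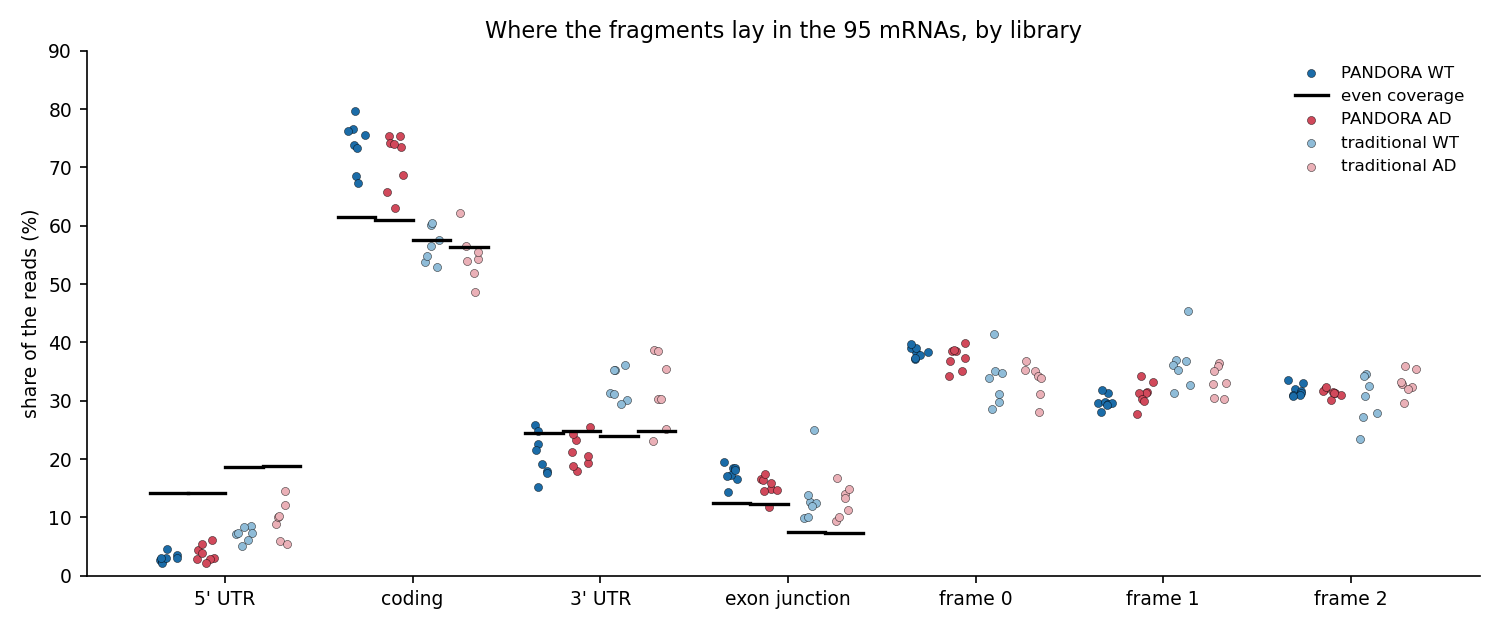
Share of the members' reads (%) in 5′ UTR, coding sequence and 3′ UTR, across exon junctions, and, among coding fragments, with their 5′ end in codon position 1 (frame 0), 2 (frame 1) or 3 (frame 2). Points are libraries and black lines are the shares that even coverage of unique windows would give. PANDORA-seq points lie above the line for coding sequence, above it for junctions in all but 1 AD library, and below it for 5′ UTR.

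Coding fragments began at the first base of a codon more often than at the others in PANDORA-seq. The share was 37.9% ± 1.54 (SD, n = 16) for the first base, 30.5% ± 1.72 for the second and 31.6% ± 0.86 for the third. In traditional-seq the first base had 33.5% ± 3.56 (SD, n = 14), 4.35 percentage points lower (permutation test, adjusted p = 0.000126). WT and AD had 38.3% ± 0.91 and 37.4% ± 1.95 in PANDORA-seq (exact permutation test adjusted p = 0.40). Other nuclear mRNAs had 39.6% ± 1.22, so a preference for the first base was not particular to the members, whose share was 1.76 percentage points lower (exact permutation test by sign flips, adjusted p = 0.0011). Counted once per distinct sequence, it was 0.24 points lower, fell short of the threshold (38.3% and 38.5%, permutation test adjusted p = 0.17) and was lower in 11 of 16 libraries. Both p-values against other mRNAs measure spread between libraries that hold the same genes, so the contrast of the gene sets is a description.

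The frame varied with length. Counted once per sequence and library, fragments whose length leaves a remainder of 2 when divided by 3 began at the first base of a codon in 42% ± 1.32 (SD, n = 16) of cases in PANDORA-seq. A remainder of 1 gave 37.7% ± 1.2 and a remainder of 0 gave 34.9% ± 0.86. The lowest library of the first class, at 39.3%, lay above the highest of the last, at 36.5%. Fragments with a remainder of 2 that begin at the first base of a codon end on the middle base of a codon.

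The 5′ base was uneven as well. In PANDORA-seq 48.5% ± 5.71 (SD, n = 16) of the members' reads began with A and 28.9% ± 4.05 with G, while 11% began with C and 11.6% with T. In the unique 36-nt windows of the same transcripts these bases open 25%, 26.1%, 24.0% and 24.8%. Counted once per distinct sequence, A opened 33.3%, so abundant sequences began with A more often than rare ones. In traditional-seq A opened 28.2% ± 2.91 (SD, n = 14), C 26.7%, G 16.51% and T 28.6%. Sequences opened by A began at the first base of a codon in 40.4% of distinct PANDORA-seq sequences, where the windows opened by A would give 35.4%. For G the shares were 43.9% and 40.8%, for C 30.3% and 31.3%, and for T 24.7% and 24.6%, so the share was above that of the windows for A and G and not for C, with T close to it.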

How the data were processed

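The authors deposited, for each of 30 libraries, a table of distinct read sequences with their counts after adapter removal, and all sequence counts were used as deposited. The submitters' notes name mm39. The study's methods state annotation with SPORTS1.1, allowing 1 mismatch, and edgeR with TMM. Here reads of 20 to 45 nt were placed over their full length, with 0 mismatches, to GENCODE M21 transcripts (GRCm38) on both strands. A read was assigned to a gene where it matched its sense strand and no other gene, pseudogenes included. The matcher was tested on simulated reads. Counts were tested with edgeR 4.0.16 (filterByExpr, TMM, quasi-likelihood) over all protein-coding genes, and DESeq2 was an alternative. Each SE beside an edgeR fold change was derived as the absolute log2 fold change divided by the square root of the F statistic. In simulated PANDORA-seq data 184 of 200 genes changed 4-fold were called and 9 unchanged genes with them, in a table of 13472 genes. In simulated traditional-seq data 161 of 200 passed the filter and all 161 were called, with 0 unchanged genes, in a table of 3472 genes. Shares were compared by permutation over libraries. RPM used all deposited reads. Reads without molecular identifiers are not independent molecules, so limits cover counting error only. The labels give replicate numbers but no animal for each library. In the library names 14 codes occur in both protocols and may mark shared animals, so the protocol tests, which take libraries as independent, may treat paired libraries as unrelated, and a fit paired by code was an alternative. The p-values measure the spread between libraries. Tmem38b and Lars2, matched by very many reads, were kept apart from other mRNAs after seeing the data.

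The members and gene lists were chosen with earlier results of these data known. Named genes were the 3 leading members of each complex, Cycs, Cyc1, members called between genotypes, the 3 highest and 3 lowest fold changes among those called between protocols, and 6 isoform pairs. Sequences of members on chromosome 18 were neither ranked nor printed. No file of the authors' own comparisons was used.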

Additional observations from a re-analysis of the deposited data

Results flagged for a closer look

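Libraries whose gap to the next library of their group exceeded Dixon's 95% critical value are given here. Single genes were tested where the group's median was at least 3 reads, which gave 173 groups and 34 flags. Chance flags about 1 in 20 groups, and genes and complexes share libraries, so the flags are not independent.

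Most flags were PANDORA-seq AD replicate 5, the highest of its group at 1226 RPM for all members, where the next library had 657.6. By complex it had 280 RPM for complex I, 15.9 for complex I assembly factors, 91.6 for complex II, 131 for complex III, 184 for complex IV and 520.0 for complex V. By gene it had 17.8 RPM for Ndufa10, 56.7 for Sdha, 15.8 for Sdhb, 28.3 for Uqcrc1, 16.4 for Uqcrh and 9.74 for Cyc1. It had 30.1 RPM for Cox4i1, 24.6 for Cox7a2, 23.2 for Cox5a, 22.1 for Cox6a1 and 10.1 for Cox6b1. It had 195 RPM for Atp5b, 141 for Atp5a1 and 5.13 for Atp5mpl. Its share of members among 1000 nuclear mRNA reads, 9.22, was inside the range of the group. Without it the log2 ratio of AD over WT in the members' RPM was −0.93, and 0 members were called.

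Traditional-seq WT replicate 5 was the highest of its group for complex IV (30.1 RPM), Ndufa10 (1.77), Cox4i1 (7.33), Cox6a1 (3.71) and Ndufa4 (1.69). Traditional-seq WT replicate 3 had 9.38 members' reads per 1000 nuclear mRNA reads, 24.9% of its members' reads across exon junctions and 45.45% of its coding fragments in frame 1, each the highest of its group, on 930 members' reads. Traditional-seq AD replicate 3 had the highest Ndufb10 level, 1.47 RPM.

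PANDORA-seq WT replicate 4 had 5.56 RPM of Cycs and WT replicate 5 had 0.90 RPM of Cox6a2, both the highest of the group. The sense share of reads on the members was lowest in WT replicate 8, at 99.7%, and in AD replicate 1, at 99.1%.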

How the results depend on the processing

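No member was called between AD and WT in either protocol under any alternative run (likelihood ratio test, DESeq2, other scalings and filters, no fold threshold, other lengths, pseudogenes ignored, leading sequence left out, genes of all biotypes, each library left out, where the counts stayed at 0 to 0). With a replicate block, counts were also 0, and the members' median log2 fold change came to −0.15 with PANDORA-seq and −0.24 with traditional-seq. Replicate numbers did not pair the samples: same-numbered libraries correlated at −0.29 to 0.43 and −0.07 to 0.10, and none matched its own number best. Among all genes, library totals in place of TMM called 11 higher in AD in PANDORA-seq, where TMM called 0. Leaving out each library gave a log2 ratio of AD over WT in the members' RPM of −0.93 to −0.49 in PANDORA-seq and −0.26 to 0.05 in traditional-seq, where the ratio of medians was 0.06 against −0.14 for means. Per protein-coding read the PANDORA-seq value was −0.24, against −0.68 per library read, and −0.16 without Tmem38b and Lars2, a denominator chosen after seeing the data.

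Between protocols, members called higher and lower numbered 35 and 2 of 85, beside 1480 and 501 of 12015 genes. By library total they numbered 83 and 0, beside 11806 and 16. The lower count was 5 of 94 with DESeq2, beside 1440 of 17159 genes. It was 4 of 94 with a loose filter, beside 723 of 17159, and 1 of 87 with pseudogenes ignored, beside 524 of 12060. Paired by the code in the library names, 30 of 82 members were higher and 2 lower, beside 972 and 470 of 10505 genes. The log2 ratio of the members' RPM was 3.35, and 0.49 per protein-coding read or 0.68 without Tmem38b and Lars2. With reads of 20 to 42 nt, the genotype difference in mean length was −0.47 nt (adjusted p = 0.59) and the protocol difference in junction share 2.03 points (adjusted p = 0.090). Weighted by distinct sequences, the genotype difference in PANDORA-seq was −0.17 points for 3′ UTR share and −1.23 for junction share (adjusted p = 0.0070), and the protocol difference for frame 2 was −0.047. The cause was not tested for these.

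Fold changes of single genes changed sign, among them those of Atp5mpl and Cox7c, the 2 members called lower between protocols. In PANDORA-seq AD against WT these were Cycs (0.039 with its leading sequence left out), Ndufaf8 (−0.40 by library total, −0.15 at 20 to 42 nt), Uqcr11 (0.089 at 20 to 42 nt), Cox7c (−0.46 by library total, −0.0053 at 25 to 45 nt, −0.53 with pseudogenes ignored), Cox8a (−0.31) and Cox7a1 (−0.42) by library total. In traditional-seq they were Uqcrc1 (0.030 with its leading sequence left out, 0.088 with the replicate block) and Cox4i1 (−0.0035 by library total). Between protocols they were Cox4i1 (−0.052 at 25 to 45 nt), Atp5g3 (−0.14 with its leading sequence left out) and, by library total, Atp5a1 (2.51), Atp5mpl (0.62) and Cox7c (0.66). Leaving out each library, fold changes that crossed 0 ranged in PANDORA-seq from −0.59 to 0.045 for Cox6a2, from −0.038 to 0.19 for Cox7a1, from −0.11 to 0.14 for Cox7c, from −0.16 to 0.14 for Cycs, from −0.017 to 0.14 for Ndufaf8, from −0.13 to 0.0056 for Sdhc, from −0.20 to 0.012 for Uqcr11, and in traditional-seq from −0.26 to 0.22 for Atp5a1, from −0.14 to 0.046 for Atp5b, from −0.32 to 0.18 for Atp5mpl, from −0.0051 to 0.29 for Cox4i1, from −0.057 to 0.18 for Cox7a2, from −0.16 to 0.21 for Uqcrc1, from −0.45 to 0.035 for Uqcrh. The match to a whole genome was not run, because no genome sequence was used here. In traditional-seq 72 members did not pass the filter between genotypes.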
